A study of Mus musculus with 6 samples.

Results

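The genes described here are 10 components of the Notch pathway: the ligands Dll1, Dll3 and Jag1, the receptors Notch1, Notch2 and Notch3, the DNA-binding factor Rbpj, and the effectors Hes1, Hes5 and Hey1. They were taken by name from a count table of 55367 genes, with no threshold on their values, although the list was drawn up with earlier results of these data known. All 10 were present, and all 10 had enough counts to be among the 16976 genes tested. RNA-seq had been carried out on cortical neurons from C57BL/6J mouse pups at postnatal day 1, kept for 2 days in vitro, with 3 WT and 3 Fmr1-KO libraries. Fmr1-KO mice lack FMRP, an RNA-binding protein encoded by Fmr1 and missing in fragile X syndrome. Age, strain and culture time were the same in both genotypes, and no other treatment or allele was named. According to the study's methods, ACSA2-positive astrocytes and myelin were removed with magnetic beads before plating. Fmr1-KO was compared with WT to ask how the transcriptome differed in cells without FMRP.

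Notch signalling passes between neighbouring cells. A ligand on one cell binds a receptor on the next, the receptor is cut by proteases, and its intracellular domain enters the nucleus and joins RBPJ, which turns from repressor to activator. Among the genes switched on are the Hes and Hey repressors, which hold down proneural factors and, through them, Dll1, so that in the embryonic cortex cells with active Notch remain progenitors while their neighbours become neurons.

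The 250 bases upstream of 2 member genes are shown because they carry the letters through which the pathway is known to read and write, the RBPJ core and the E-box. Both sequences are from RefSeq windows on GRCm38, written 5′ to 3′ on the gene's strand. In the Hes5 window, chr4:154960673-154960922 on the plus strand, capitals mark the RBPJ core TGGGAA on either strand. In the Dll1 window shown, the one of 2 with more E-boxes, chr17:15376933-15377182 on the minus strand, capitals mark the E-box CANNTG, the motif that proneural factors bind.
Hes5: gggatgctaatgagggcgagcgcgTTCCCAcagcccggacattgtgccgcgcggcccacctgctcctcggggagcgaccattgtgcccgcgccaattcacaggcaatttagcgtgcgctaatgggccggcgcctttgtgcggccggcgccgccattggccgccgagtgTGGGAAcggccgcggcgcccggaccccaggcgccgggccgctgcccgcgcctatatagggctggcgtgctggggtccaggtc
Dll1: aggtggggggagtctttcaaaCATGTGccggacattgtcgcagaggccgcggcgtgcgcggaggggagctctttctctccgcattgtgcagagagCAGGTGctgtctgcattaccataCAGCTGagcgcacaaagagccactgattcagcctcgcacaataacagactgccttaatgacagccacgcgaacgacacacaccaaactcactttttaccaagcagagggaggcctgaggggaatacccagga

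The Hes5 window held 2 RBPJ cores, one on each strand, and both belonged to the longer form GTGGGAA. Of all 32851 windows of this length, 21.6% held at least 1 TGGGAA, 2.77% held 2 or more, and 0.161% held 2 or more of the longer form, which contains the shorter one. The Dll1 window shown held 3 E-boxes, the other Dll1 window (chr17:15375824-15376073, minus strand) held 1, and neither held an RBPJ core. E-boxes were common: 66.2% of all windows held at least 1 and 31.8% held 2 or more. The Dll3 window held 2, the Jag1 and Hes5 windows held 1 each, and the Rbpj windows held 2 and 0. Windows were found for 8 of the 10 genes, with 10 windows in all, and none was given for Hes1 or Hey1. Searched in the same way, the windows of Notch1, Notch2 and Notch3 held neither an E-box nor an RBPJ core. The Dll3 and Jag1 windows held no RBPJ core. Rbpj has 2 windows that overlap (chr5:53590096-53590345 and chr5:53590236-53590485, plus strand). The first held 2 TGGGAA cores. The only core in the second window was also in the first, and neither window held the longer form. A match of letters describes the sequence and is not evidence of binding.

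The targeted gene was lower in every library labelled Fmr1-KO. Fmr1 was at 118, 112 and 110 CPM (counts scaled to library size by TMM) in WT and at 54.2, 61.4 and 56.7 CPM in Fmr1-KO. The log2 fold-change of -0.98 (SE 0.04) had a Benjamini-Hochberg adjusted P of 2.25e-13 in the quasi-likelihood test of edgeR, which was used throughout. Library totals ran from 30348556 to 35126207 counts. A call means an adjusted P under 0.05 over all 16976 genes. The labels named neither litters nor preparation batches, and the study says only that the triplicate samples were independently derived. P thus measures the spread between these libraries, part of which may be technical, and no comparison within a batch was made.

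Of the 10 Notch genes, 5 were higher in Fmr1-KO (Dll1, Dll3, Notch1, Notch2 and Rbpj), 1 was lower (Hey1), and 4 did not pass the test (Jag1, Notch3, Hes1 and Hes5). Among all tested genes, 20.7% were called higher and 21.9% were called lower, so single calls in either direction were common. With libraries scaled by their totals alone, the higher calls outnumbered the lower (4207 against 3212, where TMM gave 3506 and 3725), and the counts for the 10 Notch genes stayed at 5 and 1. The median log2 fold-change was 0.15 over the 10 genes and 0.01 over all tested genes. For the same 6 genes the 3 Fmr1-KO libraries did not overlap the 3 WT libraries. Over all tested genes, 25.4% had no overlap with Fmr1-KO higher and 26.3% had none with Fmr1-KO lower. The RNA was from whole cultures, so fewer cells of a type and less RNA per cell cannot be told apart.

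**Figure D1:**
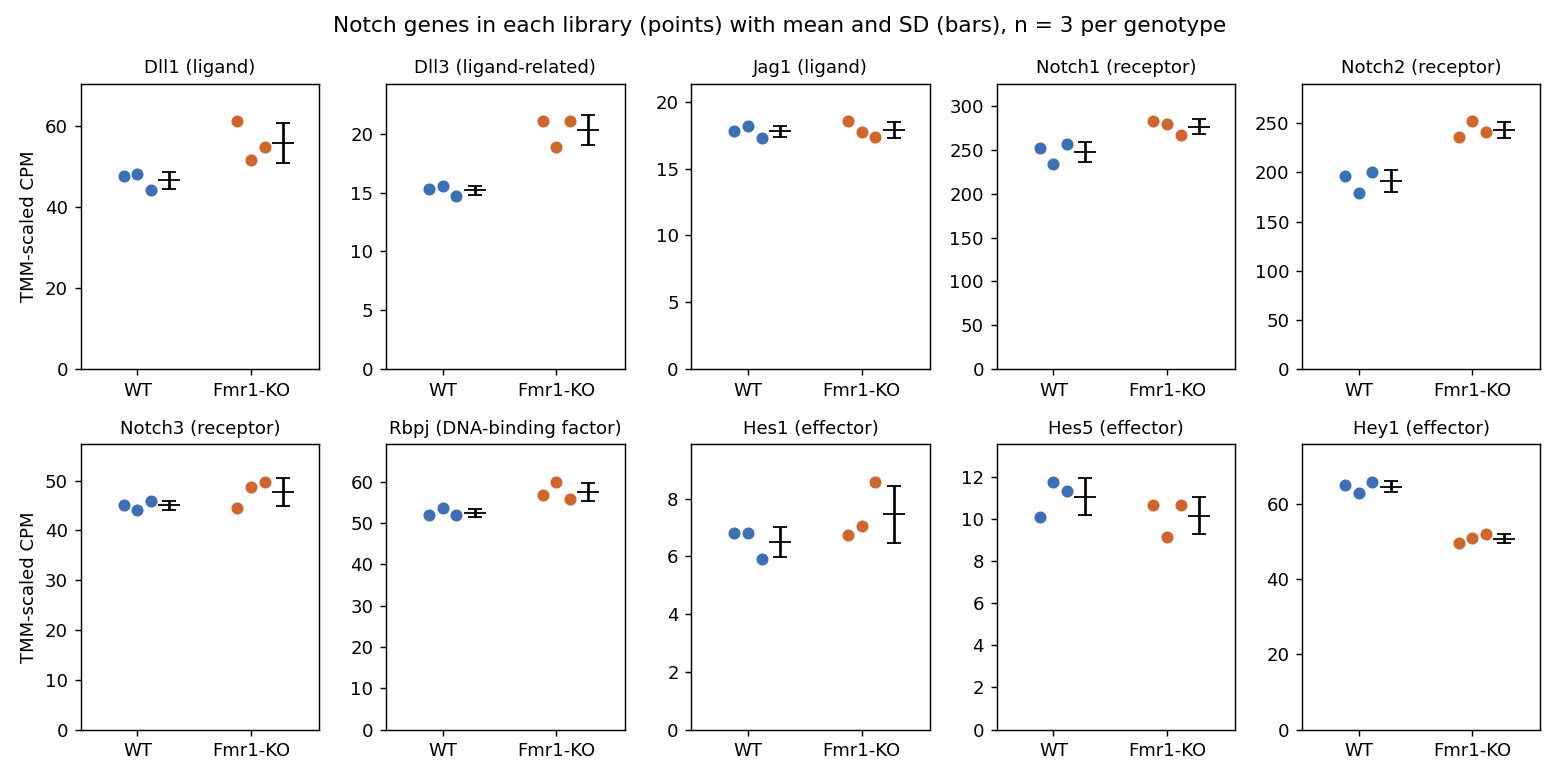
TMM-scaled CPM (linear axes from 0) of each of the 10 Notch genes in 3 WT (blue) and 3 Fmr1-KO (orange) libraries, with the mean and SD of each genotype as a bar beside the points. The genotypes separate upward for Dll1, Dll3, Notch1, Notch2 and Rbpj and downward for Hey1, where WT libraries lie between 62.9 and 66.0 CPM and Fmr1-KO libraries between 49.6 and 52.0 CPM, and they overlap for Jag1, Notch3, Hes1 and Hes5.

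Both Delta-like genes rose in Fmr1-KO, and Jag1 did not pass the test. Dll1 (chr17:15367354-15376872, minus strand), a ligand of neurogenic cells that activates Notch in their neighbours, was at 47.6, 48.1 and 44.3 CPM in WT and at 61.3, 51.6 and 54.8 CPM in Fmr1-KO. Every Fmr1-KO library lay above every WT library, and replicate 1 of Fmr1-KO was the highest. The mean rose from 46.7 ± 2.08 to 55.9 ± 4.97 CPM (SD, n = 3 each), a log2 fold-change of 0.26 (SE 0.05, 95% interval 0.15 to 0.37, adjusted P = 0.000414). A change at least as large in size was found in 32.5% of tested genes.

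Dll3 (chr7:28293553-28302238, minus strand) encodes a divergent Delta that stays mostly inside the cell and does not activate receptors on neighbours. It was at 15.3, 15.5 and 14.7 CPM in WT and at 21.1, 18.8 and 21.1 CPM in Fmr1-KO. The WT libraries lay close together, and all 3 Fmr1-KO libraries were above them. This was the largest rise among the 10 genes, from 15.2 ± 0.409 to 20.3 ± 1.29 CPM, with a log2 fold-change of 0.42 (SE 0.06, 95% interval 0.29 to 0.56, adjusted P = 1.42e-05). As large a change was found in 18.2% of tested genes.

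Jag1 (chr2:137081456-137116644, minus strand), a ligand of the Serrate type, was at 17.8, 18.2 and 17.3 CPM in WT and at 18.6, 17.8 and 17.4 CPM in Fmr1-KO. The libraries of the genotypes were intermingled. The log2 fold-change was 0.01 (SE 0.06, adjusted P = 0.918), and its 95% interval from -0.12 to 0.13 lay below the intervals of Dll3 and Dll1. Jag1 is also the only one of the 10 genes on the study's list of targets of nonsense-mediated decay. That process destroys certain mRNAs as they are translated. The list was drawn up in N2A neuroblastoma cells. By the paper's own account it misses targets that these cultures express and N2A cells do not. Of the 60 further pathway genes described below, 5 are on that list. Of these, Pofut1 and Insm1 were called, both higher. The counts were not set against pre-mRNA, as the study did by RT-qPCR to separate decay from synthesis, so decay was not measured here.

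The receptors Notch1 and Notch2 rose, and Notch3 did not pass the test. Notch1 (chr2:26457903-26516663, minus strand), the main receptor of cortical progenitors, was at 252, 234 and 256 CPM in WT and at 283, 279 and 268 CPM in Fmr1-KO. The groups were separate, but the lowest Fmr1-KO library was near the highest WT library. The mean rose from 248 ± 11.6 to 277 ± 8.12 CPM. The log2 fold-change was 0.16 (SE 0.03, 95% interval 0.09 to 0.23, adjusted P = 0.000781). A change of this size or more was found in 48.7% of tested genes.

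Notch2 (chr3:98013527-98150361, plus strand), a receptor shared by progenitors and glia, was at 196, 179 and 200 CPM in WT and at 236, 252 and 242 CPM in Fmr1-KO. The gap between the genotypes was wider than the spread within either. Its mean rose from 192 ± 11.3 to 243 ± 8.29 CPM, with a log2 fold-change of 0.35 (SE 0.04, 95% interval 0.27 to 0.43, adjusted P = 2.11e-07), which places it among the 23.8% of tested genes with the largest changes. Its exons overlap those of Gm42820 on the same strand, a gene with 5 to 11 counts per library.

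Notch3 (chr17:32120820-32166852, minus strand) is the receptor of pericytes and smooth muscle and is also present in progenitors. Its libraries were at 45.2, 44.1 and 45.9 CPM in WT and at 44.4, 48.7 and 49.8 CPM in Fmr1-KO. Replicate 1 of Fmr1-KO lay within the WT range while the other two lay above it. The log2 fold-change was 0.08 (SE 0.05, 95% interval -0.01 to 0.18, adjusted P = 0.166). Without replicate 1 of Fmr1-KO it was 0.13 and passed the test (adjusted P = 0.0381).

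Rbpj (chr5:53466152-53657362, plus strand), the factor through which all Notch receptors act on DNA, was at 52.0, 53.6 and 52.0 CPM in WT and at 56.9, 60.1 and 55.9 CPM in Fmr1-KO. The WT libraries were tight and all Fmr1-KO libraries were above them. Its mean rose from 52.5 ± 0.927 to 57.6 ± 2.17 CPM, a log2 fold-change of 0.13 (SE 0.04, 95% interval 0.05 to 0.22, adjusted P = 0.0103). A change as large was found in 54.7% of tested genes. The call was lost without replicate 2 of Fmr1-KO, the highest library (log2 fold-change 0.10, adjusted P = 0.0551). When the test required a change of more than 1.2-fold, Dll1, Notch1 and Rbpj were no longer called (adjusted P of 0.891, 1 and 1), whereas Dll3, Notch2 and Hey1 were.

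**Figure D2:**
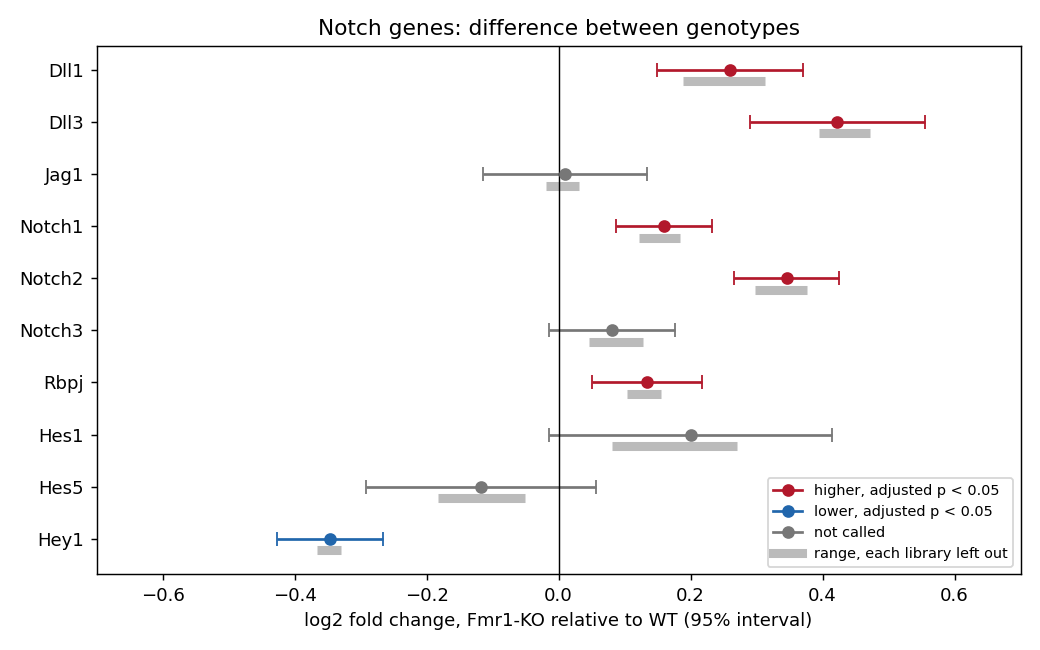
Log2 fold-change (Fmr1-KO relative to WT) of each of the 10 Notch genes with its 95% interval from edgeR, in red for genes higher and blue for genes lower at an adjusted P under 0.05 and grey for the others, above a grey bar for the range of the log2 fold-change with each library left out in turn. The values run from -0.35 for Hey1 to 0.42 for Dll3, and the intervals of Jag1, Notch3, Hes1 and Hes5 include 0.

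Of the 3 effectors, 1 fell in Fmr1-KO and 2 did not pass the test. Hes1 (chr16:30064384-30067796, plus strand), a repressor that keeps progenitors undifferentiated, was at 6.82, 6.81 and 5.90 CPM in WT and at 6.73, 7.06 and 8.59 CPM in Fmr1-KO. The genotypes overlapped, and replicate 3 of Fmr1-KO was well above its other two. The log2 fold-change was 0.20 (SE 0.10, 95% interval -0.01 to 0.42, adjusted P = 0.126). Without replicate 3 of Fmr1-KO it was 0.08. Hes1 had the fewest counts of the 10 genes, from 197 to 299 per library, and the widest interval.

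Hes5 (chr4:154960923-154962371, plus strand), the Hes gene that depends most directly on Notch in the developing brain, was at 10.1, 11.8 and 11.3 CPM in WT and at 10.7, 9.15 and 10.6 CPM in Fmr1-KO. The libraries overlapped. The log2 fold-change was -0.12 (SE 0.08, 95% interval -0.29 to 0.06, adjusted P = 0.275). It ran from -0.18 without replicate 1 of WT to -0.05 without replicate 2 of Fmr1-KO, and was -0.07 without replicate 2 of WT. The Hes5 window with its pair of RBPJ cores is crossed by an exon of the antisense gene Gm20421, which had 1 to 4 counts per library. Hes5 counts were assigned by strand.

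Hey1 (chr3:8663359-8667256, minus strand), a repressor related to the Hes proteins, was the only one of the 10 genes that fell. It was at 65.0, 62.9 and 66.0 CPM in WT and at 49.6, 50.9 and 52.0 CPM in Fmr1-KO. Replicates were close to each other in both genotypes, and a clear gap separated WT from Fmr1-KO. The mean went from 64.6 ± 1.55 to 50.8 ± 1.21 CPM, a log2 fold-change of -0.35 (SE 0.04, 95% interval -0.43 to -0.27, adjusted P = 2.64e-07). As large a change was found in 23.7% of tested genes, much as for Notch2 in the other direction.

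Ratios of one Notch gene to another within a library do not depend on how libraries are scaled. The Hey1 to Hes1 ratio was 9.53, 9.25 and 11.2 in WT and 7.37, 7.21 and 6.05 in Fmr1-KO, a difference of -0.54 on the log2 scale. The ratio of Notch1 to Notch2 was 1.29, 1.31 and 1.28 in WT and 1.2, 1.11 and 1.11 in Fmr1-KO, a difference of -0.19. In both ratios the genotypes were separate: Hey1 was lower relative to Hes1, and Notch1 was lower relative to Notch2 although both receptors rose.

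The Dll1 to Jag1 ratio was 2.67, 2.65 and 2.56 in WT and 3.30, 2.90 and 3.15 in Fmr1-KO, a log2 difference of 0.25. The Dll3 to Dll1 ratio was 0.321, 0.323 and 0.333 in WT and 0.344, 0.365 and 0.385 in Fmr1-KO, a log2 difference of 0.16. Dll3 was thus higher relative to Dll1 in every Fmr1-KO library than in any WT library. The Hes5 to Hes1 ratio was 1.48, 1.73 and 1.91 in WT and 1.58, 1.30 and 1.24 in Fmr1-KO, a log2 difference of -0.31 with overlapping libraries. By a 2-sided exact permutation test, the first 4 ratios each gave P = 0.1, the smallest value that 3 libraries against 3 allow, and the last gave P = 0.2. Adjusted over the 5 ratios, these were 0.125 and 0.2, so none of the ratios passed the test, nor could any have done so.

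**Figure D3:**
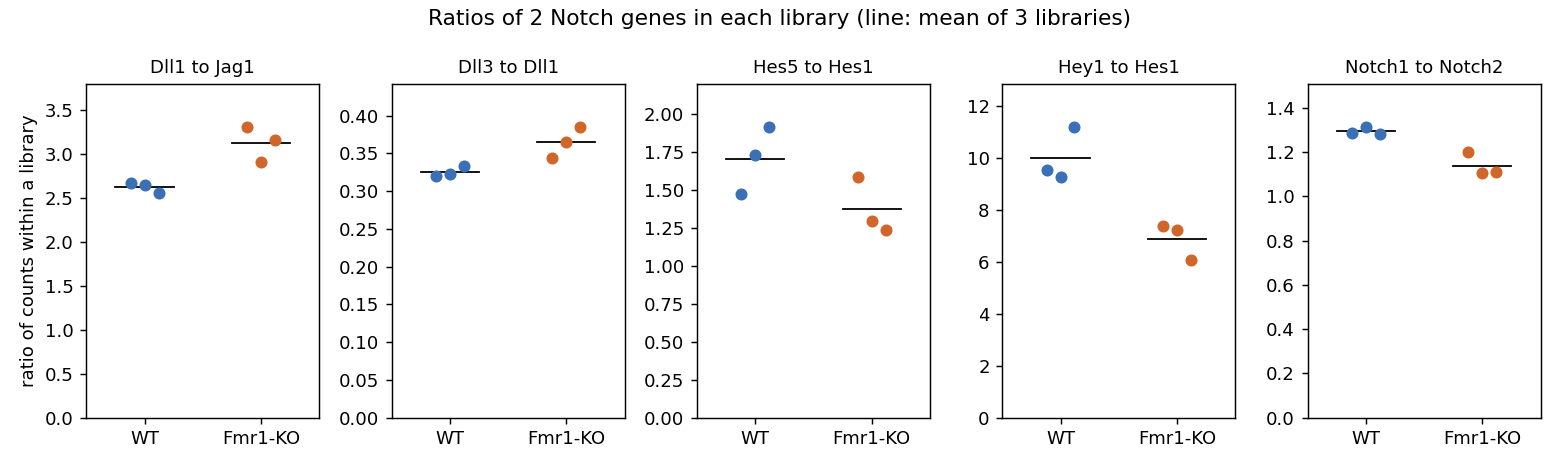
Ratio of counts of one Notch gene to another in each of 3 WT (blue) and 3 Fmr1-KO (orange) libraries, on linear axes from 0, with a line at the mean of each genotype. Genotypes do not overlap for Dll1 to Jag1, Dll3 to Dll1, Hey1 to Hes1 and Notch1 to Notch2, and they overlap for Hes5 to Hes1, where WT runs from 1.48 to 1.91 and Fmr1-KO from 1.24 to 1.58.

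Levels of different genes can be compared only per length, and were given for this purpose as RPKM (CPM per kilobase of all annotated exons). In WT, Hey1 was the highest of the 10 genes at 19.8 RPKM, followed by Notch2 at 17.8 and Notch1 at 17.4 RPKM, whose libraries overlapped. Dll1 at 11.1 RPKM and Hes5 at 8.10 RPKM came next. Notch3 at 5.57 and Dll3 at 5.33 RPKM overlapped, Rbpj was at 4.12 RPKM, and Hes1 at 3.20 and Jag1 at 3.05 RPKM overlapped. In Fmr1-KO the receptors headed the order, with Notch2 at 22.6 and Notch1 at 19.4 RPKM, and Hey1 was at 15.6 RPKM. The order depends on the length used: per length of the longest coding transcript, an alternative chosen after seeing the data, Notch1 at 26.1 RPKM was above Notch2 at 18.2 RPKM in WT, and Rbpj was at 9.57 RPKM, above Hes5 at 8.68 RPKM. By that length Hey1 was at 26.7 ± 0.640 RPKM and Notch1 at 26.1 ± 1.22 RPKM (SD, n = 3), closer than their spread.

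Summed by role, the ligands were at 76.4 to 81.8 CPM in the WT libraries and at 88.2 to 101 CPM in the Fmr1-KO libraries. The receptors were at 457 to 502 CPM in WT and at 559 to 580 CPM in Fmr1-KO. The effectors went the other way, from 81.5 to 83.2 CPM in WT to between 67.0 and 71.3 CPM in Fmr1-KO, a sum made up largely of Hey1. The ligand sum was made up largely of Dll1 (46.7 CPM in WT), and the receptor sum of Notch1 and Notch2 (248 and 192 CPM in WT). Jag1 and Notch3 did not pass the test. None of the 3 role sums overlapped between genotypes. Among all tested genes taken singly, 25.4% had no overlap with Fmr1-KO higher and 26.3% had none with Fmr1-KO lower.

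Genes outside the 10 were compared with Dll3 and Hey1 over the 6 libraries, by the root mean square difference of centred log2 CPM. The 5 genes most like Dll3 were Fbln5, Csrp2, Cbx2, Septin10 and Ypel1, with differences of 0.031 to 0.035 log2 units. Those most like Hey1 were Mapk8, Lgmn, Nudt4, Lmtk2 and Lrig1, with differences of 0.015 to 0.018 log2 units.

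A further 60 genes of the pathway were examined by function. Of these, 55 were tested, 12 were higher, 12 were lower and 31 did not pass the test, with a median log2 fold-change of 0.04. The shares of genes called were thus about those among all tested genes. Rbpjl, Hes2, Hes3, Hes7 and Neurog1 had too few counts to be tested. The functional subgroups are small, and their counts are given as a description.

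All 5 other ligands were called, 2 higher and 3 lower. Dlk1, a membrane protein that lacks the receptor-binding domain of Delta, rose from 5.37 to 7.60 CPM (log2 fold-change 0.50, adjusted P = 0.000117). Dll4, the Delta ligand of vessels, was at 7.52 CPM in WT and 8.70 CPM in Fmr1-KO (0.21, adjusted P = 0.0449), a call lost without any one of the 6 libraries (adjusted P of 0.0526 to 0.17) and by DESeq2 (adjusted P = 0.159). The neuronal ligand Dner fell from 205 to 143 CPM (-0.52, adjusted P = 5.52e-11). Dlk2 fell from 10.4 to 7.06 CPM (-0.56, adjusted P = 4.13e-05). Jag2, named after its values were seen, also fell, from 30.8 to 26.5 CPM (-0.22, adjusted P = 0.00134). Notch4, the remaining receptor, did not pass the test (0.20, adjusted P = 0.304).

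Of 4 E3 ligases that drive endocytosis of the ligand, 3 fell and none rose. Neurl1a went from 13.8 to 9.38 CPM (-0.56, adjusted P = 7.22e-06), Neurl1b fell to 30.5 CPM in Fmr1-KO (-0.19, adjusted P = 0.00637), and Mib1, named after its values were seen, fell by 0.14 on the log2 scale (adjusted P = 0.00189). Of 10 genes for the proteases that cut the receptor, only Psen2, a catalytic subunit of gamma-secretase, was called. It was at 17.3 CPM in WT and 15.3 CPM in Fmr1-KO (-0.17, adjusted P = 0.034), and this call was lost by DESeq2, with library totals alone, with no filter on low counts and without any one of 4 libraries (replicates 1 and 3 of WT and replicates 2 and 3 of Fmr1-KO).

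Among 5 enzymes that glycosylate the receptor, 3 rose and 1 fell. Mfng, one of 3 Fringe enzymes that alter which ligands a receptor responds to, rose from 11.5 to 19.1 CPM (0.74, adjusted P = 5.55e-08). Rfng was at 60.5 CPM in WT and 54.4 CPM in Fmr1-KO with overlapping libraries (-0.15, adjusted P = 0.0153), a call lost without replicate 3 of WT (adjusted P = 0.115) or replicate 2 of Fmr1-KO (adjusted P = 0.073). The last Fringe, Lfng, had a log2 fold-change of -0.02 and did not pass the test. Pofut1, which adds the O-fucose that Fringe enzymes extend, rose from 44.2 to 51.4 CPM (0.22, adjusted P = 0.000272). Poglut1, named after its values were seen, rose by 0.10 on the log2 scale (adjusted P = 0.0361).

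Of 9 antagonists and genes of receptor turnover, 2 rose and 3 fell. Nrarp, itself a Notch target and a feedback inhibitor of the RBPJ complex, rose from 39.6 to 53.8 CPM (0.44, adjusted P = 4.71e-08), in contrast to Hey1. Fbxw7, which marks the cut receptor for degradation, fell from 86.5 to 74.4 CPM (-0.22, adjusted P = 3.2e-05). The Deltex genes were mixed, with Dtx3 going from 154 to 168 CPM (0.12, adjusted P = 0.00677, or 0.0675 without replicate 1 of WT) and Dtx4 from 174 to 145 CPM (-0.26, adjusted P = 7.46e-06). Dtx1, named after its values were seen, fell by 0.20 on the log2 scale (adjusted P = 0.000936).

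None of the 6 nuclear coactivators was called. Of 7 corepressors tested, only Tle1, a Groucho protein that Hes factors recruit, was called. It rose from 81.5 to 112 CPM (0.45, adjusted P = 9.75e-10). Of the other Hes and Hey genes, 3 of 6 were tested. Hes6, which counteracts Hes1 and is raised in cells entering neurogenesis, rose from 64.0 to 75.6 CPM (0.24, adjusted P = 0.000212). Hey2 fell from 4.07 to 2.83 CPM (-0.52, adjusted P = 0.0032), the same direction as Hey1. Hey2 had only 73 to 151 counts per library. Its call was lost when the test required a change of more than 1.2-fold (adjusted P = 0.0682). Heyl did not pass the test (-0.23, adjusted P = 0.239).

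The largest rises of the pathway were those of single genes on the list of proneural factors. Neurog2, a determinant of glutamatergic neurogenesis, was at 1.66 CPM in WT and 8.49 CPM in Fmr1-KO (log2 fold-change 2.34, adjusted P = 3.52e-10). Neurod4 rose from 0.513 to 1.78 CPM (1.77, adjusted P = 5.39e-06), but had only 14 to 20 counts per WT library. Insm1, named after its values were seen, rose from 54.4 to 107 CPM (0.98, adjusted P = 6.13e-13). Neurod1 did not pass the test, with a log2 fold-change of 0.00.

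**Figure D4:**
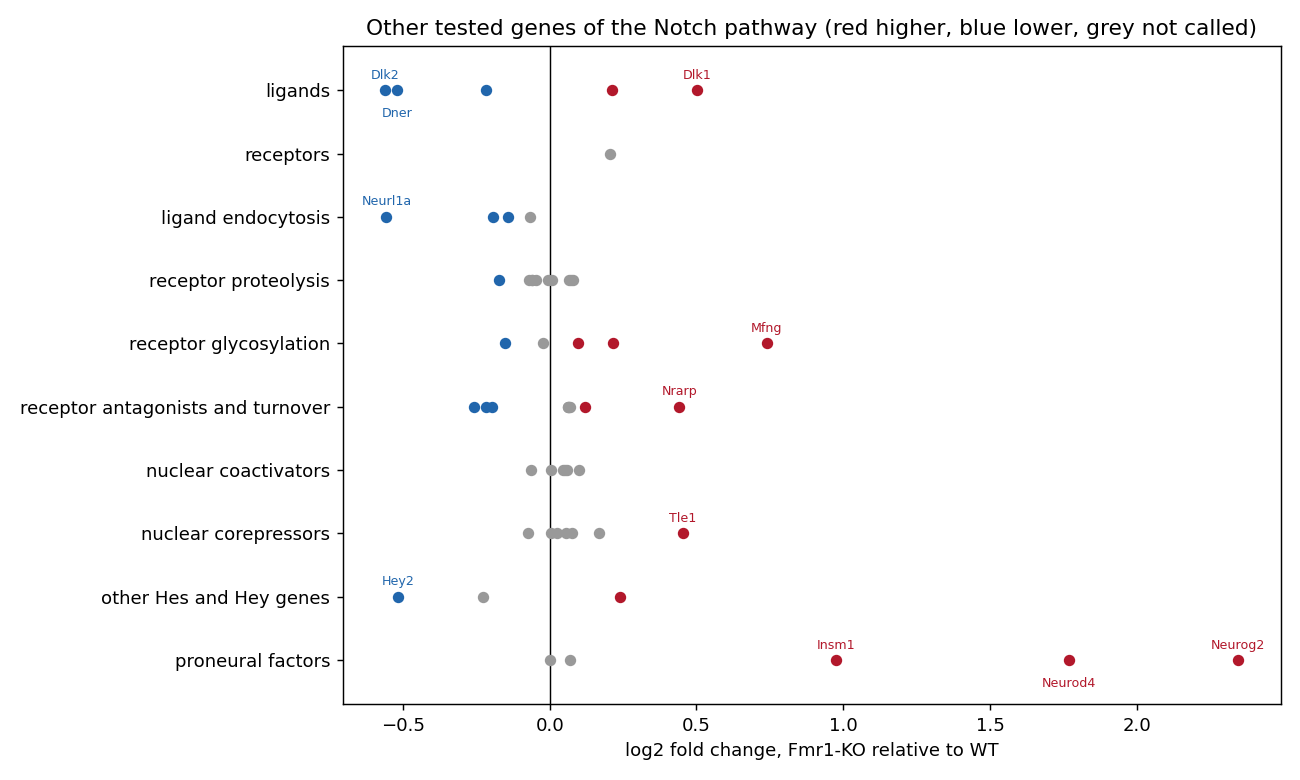
Log2 fold-change (Fmr1-KO relative to WT) of the tested genes of the wider Notch pathway, in rows by function, with genes called higher in red, called lower in blue and not called in grey. Of 55 genes, 12 were called higher and 12 lower, and the proneural genes Neurog2 (2.34) and Neurod4 (1.77) lie farthest to the right.

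Markers of several cell types moved with genotype in the same libraries, and their part in the values above was not tested. The cultures carried neuronal markers throughout, such as Tubb3 at 1094 CPM in WT and 899 CPM in Fmr1-KO, and also Gfap, an astrocyte gene, at 2649 and 2297 CPM. Of 10 proliferation genes, 10 were higher in Fmr1-KO (summed level 606 to 644 CPM in WT, 1026 to 1079 CPM in Fmr1-KO). All 4 markers of intermediate progenitors were higher (77.1 to 89.5 CPM against 153 to 177 CPM). Eomes, which went from 10.5 to 72.8 CPM, made up most of the rise in that sum. Of 11 markers of radial glia and progenitors, 7 were higher and 1 lower (4660 to 4759 CPM against 5126 to 5245 CPM). Of 10 neuronal markers, 9 were lower and 1 higher (4894 to 4994 CPM against 4061 to 4257 CPM). Among 7 astrocyte markers, 4 were lower and 2 higher (4293 to 4425 CPM against 3689 to 4033 CPM). The fall in that sum came largely from Gfap and Aqp4 (524 to 319 CPM). Gja1 (251 to 309 CPM) and Aldoc (314 to 343 CPM) were the 2 that rose. All 5 markers of oligodendrocyte precursors were lower (610 to 629 CPM against 378 to 420 CPM), and so were 6 of 7 microglial markers (160 to 178 CPM against 94.0 to 105 CPM).

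Vessel cells use Dll4, Jag1, Notch3, Notch4, Hey1 and Hey2, so their markers are given too. Endothelial markers summed to 11.3 to 15.0 CPM in WT and 21.2 to 23.7 CPM in Fmr1-KO. Of these 7 genes, 4 could be tested, with 2 higher and 1 lower. Kdr, which went from 7.27 to 17.1 CPM, made up the rise in the sum. Flt1 was also called higher, from 1.75 to 2.32 CPM, whereas the endothelial cadherin Cdh5 fell from 2.54 to 1.61 CPM. The defining gene Cldn5 was near 0, at 0.154 CPM over all libraries. Markers of mural cells summed to 240 to 262 CPM in WT and 393 to 410 CPM in Fmr1-KO, with 3 of 6 higher and 2 lower. Acta2, a smooth muscle actin, went from 176 to 322 CPM and made up most of that rise. Among the other genes on the mural list, Rgs5 (22.1 to 11.8 CPM) and Abcc9 (2.42 to 1.09 CPM) fell. Pdgfrb (46.9 to 65.1 CPM) and Myh11 (1.14 to 2.07 CPM) rose. Kcnj8, which did not pass the test, was at 0.620 CPM in WT and 0.365 CPM in Fmr1-KO. No gene of any marker list was at 0 counts in all libraries.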

How the data were processed

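RNA-seq was compared between 3 WT and 3 Fmr1-KO libraries, grouped by the genotype in the labels. The values deposited by the authors are raw counts of reads for each gene. Their methods give single-end sequencing of stranded mRNA libraries, trimming by FastP, alignment by STAR (GRCm38) and reverse-stranded counting over exons by featureCounts, summed by gene name, so isoforms were not separated. The processing notes name STAR 2.7.6a and Subread 2.0.1.

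Counts were tested with edgeR 4.0.16 (R 4.3.3): filterByExpr, TMM, glmQLFit and glmQLFTest, 2-sided, genotype as the only term, Benjamini-Hochberg adjustment over 16976 genes. SE and intervals came from the quasi-likelihood F statistic. The script was tested on simulated data. CPM were TMM-scaled, and RPKM used the union of GENCODE M21 exons. Promoter windows were the 250 bases before RefSeq starts on GRCm38.

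The Notch genes, the pathway and marker lists and the tests were chosen with earlier results of these data known. Pathway genes were named where called, if their mean reached 1 CPM and they were among the 2 largest changes per direction in their subgroup. Likeness to Dll3 and Hey1, the largest changes in each direction, was taken over genes whose mean reached 10 CPM, as log2(CPM + 0.5) centred on each gene's mean, and the 5 nearest were named.

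Alternatives were DESeq2 1.42.0, upper-quartile and RLE normalization, scaling by library totals, removal of the 20 most abundant genes, no filter, a stricter filter (means of 10 counts and 5 CPM), a replicate block, a minimum fold change of 1.2 and leaving out each library. One gene of the pathway list is not reported here.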

Additional observations from a re-analysis of the deposited data

How the results depend on the processing

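Over 15 alternatives for each of the 10 Notch genes, 143 of 150 values kept their direction and their side of the threshold. Requiring a change of more than 1.2-fold left 2 of the 5 higher Notch genes called, since Dll1 (0.26), Notch1 (0.16) and Rbpj (0.13) were lost, and left 7 higher and 3 lower genes of the wider pathway and 883 higher and 1340 lower genes in all, where 3506 and 3725 had been called. Leaving out 1 library at a time, the log2 fold-change of Jag1 ran from -0.0186 to 0.0314, below 0 without replicate 3 of WT (-0.0094) or replicate 1 of Fmr1-KO. That of Notch3 ran from 0.0459 to 0.128, called without replicate 1 of Fmr1-KO, and that of Rbpj from 0.10 to 0.15, lost without replicate 2 of Fmr1-KO. Neither Hes1 (0.081 to 0.27) nor Hes5 (-0.182 to -0.051) was called with any 1 library left out. The causes were not tested. With library totals alone, 16 pathway genes were higher and 11 lower, where TMM gave 12 and 12, and over all genes 4207 were higher and 3212 lower; with upper-quartile normalization these were 13 and 12, and 3743 and 3517.

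Replicate numbers named no shared litter, and same-numbered libraries did not deviate together (correlations of -0.0496, 0.0469 and 0.000739), so the libraries were not paired. With a replicate block, 5 Notch genes were higher and 1 lower, as without it, and 3488 and 3694 genes were called in all. Among the named pathway genes the block ended only the call of Dll4 (adjusted P = 0.0543).

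With 197 to 299 counts per library, Hes1 was the least precise: its interval of -0.01 to 0.42 includes 0 and also rises as large as that of Notch2.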
